A study of Rattus norvegicus with 59 samples.

Results

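The genes described here are 7 named members of the CYP2 family of cytochrome P450 enzymes, chosen by name for the lung: Cyp2b1, Cyp2b2, Cyp2a3, Cyp2f4, Cyp2s1, Cyp2e1 and Cyp2c7. Of these, 6 were matched by symbol among 2887 complete gene entries of the expression table, and Cyp2b1 was not analysed here. The table held 17 entries whose name starts with Cyp2, and 8 of them, all 6 members included, had at least 1 FPKM in at least 4 of 59 libraries and were tested. FPKM is the number of sequenced fragments of a gene divided by the length of its transcript and by the library's mapped fragments.

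Male Fischer F344 rats of the substrain F344/DuCrl, 3 months old at purchase, inhaled crystalline silica at 15 mg/m3 for 6 hours a day on 5 days, and control rats were exposed to air. A piece of lung was taken at 6 times after the exposure, from 1 month through 3, 6, 9 and 12 to 18 months, and total RNA depleted of ribosomal RNA was sequenced, 1 library per rat. Each of the 12 groups held 5 rats, apart from air at 9 months with 4, which gave 29 air and 30 silica libraries; rats are numbered within a group, in the order in which values are listed, for naming only. The rats of a later time were also older, so time after exposure and age cannot be told apart.

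Cytochrome P450 enzymes are haem proteins of the endoplasmic reticulum that insert an oxygen atom into drugs, solvents, steroids, retinoids and fatty acids, with electrons passed on by P450 reductase. In rodent lung they are most abundant in club cells of the airway and are also found in alveolar type 2 and endothelial cells. They are known for turning inhaled compounds such as naphthalene and tobacco nitrosamines into reactive products within the lung.

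Relative depth, read from the steps between the lowest values of rarely detected genes, ranged from 0.432 to 2.26 between libraries and was not shown to differ between silica and air at any time (exact permutation tests, two-sided p from 0.119 to 0.746). Summed FPKM of the entries ran from 12818 to 17600.2, apart from air rat 3 at 9 months (38613) and silica rat 5 at 3 months (31740.2). Leaving out either of these libraries changed no call of a member. Alveolar type 2 markers of lung (Lpcat1, Napsa and Cebpa) summed to 129.8 FPKM or more in every air library and to 138.3 or more in every silica library. Markers of club cells, the main site of several members, were not analysed here. In a piece of whole lung, fewer cells of a type and less RNA per cell cannot be told apart, and this holds for every difference below.

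Of the 6 members analysed, Cyp2b2 had the highest mean FPKM, a value that can include fragments of its near-identical copy Cyp2b1. Cyp2c7 was present at trace level. Over all times, Cyp2b2 averaged 14.4 ± 2.40 FPKM in air lungs (SD, n = 29) and 12.1 ± 1.54 in silica lungs (SD, n = 30). Cyp2f4 averaged 11.3 ± 4.61 FPKM in air and 10.2 ± 4.41 in silica, and Cyp2a3 10.03 ± 5.77 and 10.5 ± 6.50. Cyp2e1 averaged 6.21 ± 2.28 FPKM in air and 4.74 ± 1.22 in silica, and Cyp2s1 4.49 ± 1.34 and 4.34 ± 1.14. Cyp2c7 averaged 0.785 ± 1.19 FPKM in air and 0.751 ± 0.718 in silica. FPKM is a per-length level, so these genes can be ranked within a library, and each step of the order held in some libraries only. Cyp2b2 exceeded Cyp2f4 in 42 of 59 libraries, Cyp2f4 exceeded Cyp2a3 in 42, Cyp2a3 exceeded Cyp2e1 in 44, Cyp2e1 exceeded Cyp2s1 in 37 and Cyp2s1 exceeded Cyp2c7 in 58. The ranges of Cyp2b2, Cyp2f4 and Cyp2a3 overlapped widely, as did those of Cyp2e1 and Cyp2s1.

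**Figure D1:**
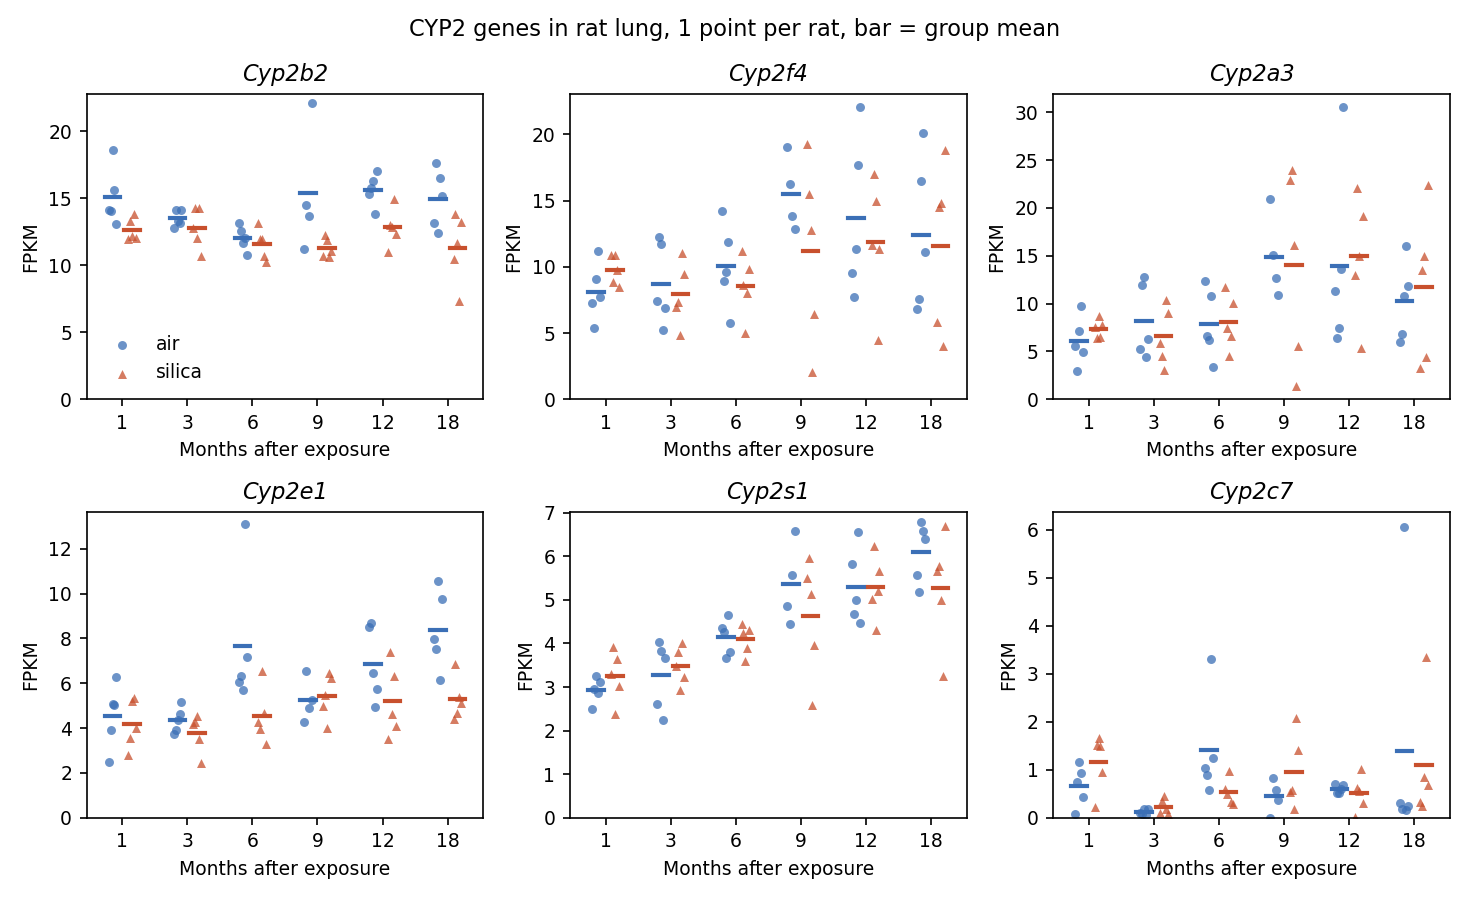
FPKM of the 6 CYP2 genes in each of 59 rat lungs against months after exposure, with 1 point per rat (circles, air; triangles, silica) and a horizontal bar at each group mean. Cyp2b2 and Cyp2s1 lie close to their group means, Cyp2a3 and Cyp2f4 scatter widely within every arm, and Cyp2c7 stays near 0 apart from a few single rats, the highest at 6.07 FPKM.

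Averaged over the 6 times, Cyp2b2 and Cyp2e1 were lower in silica than in air lungs, and no member was higher. Cyp2b2 fell by 15.4% (-0.24 ± 0.049 log2, SE; adjusted p = 3.85e-05) and Cyp2e1 fell by 19.7% (-0.32 ± 0.084 log2; adjusted p = 0.00119). Both came from limma's moderated test on log2(FPKM + 0.5) with Benjamini-Hochberg adjustment over 1278 tested genes and a threshold of 0.05, the test behind every adjusted p given here, and each percentage is on that scale. The 2 of 6 members called stand beside 57.6% of all tested genes called in this comparison, 20.1% in the lower direction, so the count does not set the members apart from other genes. The median change of the 6 members was -0.12 log2, against 0.032 over all tested genes. The silica mean was below the air mean at 6 of 6 times for Cyp2b2 and at 5 of 6 for Cyp2e1. Leaving out any single library kept both calls, with -0.26 to -0.21 log2 for Cyp2b2 and -0.35 to -0.28 for Cyp2e1.

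The 95% intervals of the other 4 members in the same average included 0. Cyp2f4 stood at -0.20 log2 (95% interval -0.51 to 0.12; adjusted p = 0.297) and Cyp2a3 at -0.044 (-0.45 to 0.36; 0.875). Cyp2s1 stood at -0.041 log2 (95% interval -0.16 to 0.083; adjusted p = 0.596) and Cyp2c7 at 0.086 (-0.27 to 0.44; 0.706). The interval of Cyp2s1 leaves out a fall as large as that of Cyp2b2, and those of Cyp2f4, Cyp2a3 and Cyp2c7 include it. No member separated the arms completely at any time, beside 8.84%, 12.7%, 25.2%, 24.6%, 3.36% and 11.1% of all tested genes in time order. The F test of whether the silica difference varied between the times called none of the 6 members (limma, adjusted p from 0.398 to 0.927; 0 at unadjusted p below 0.05), beside 1.33% of all tested genes.

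**Figure D2:**
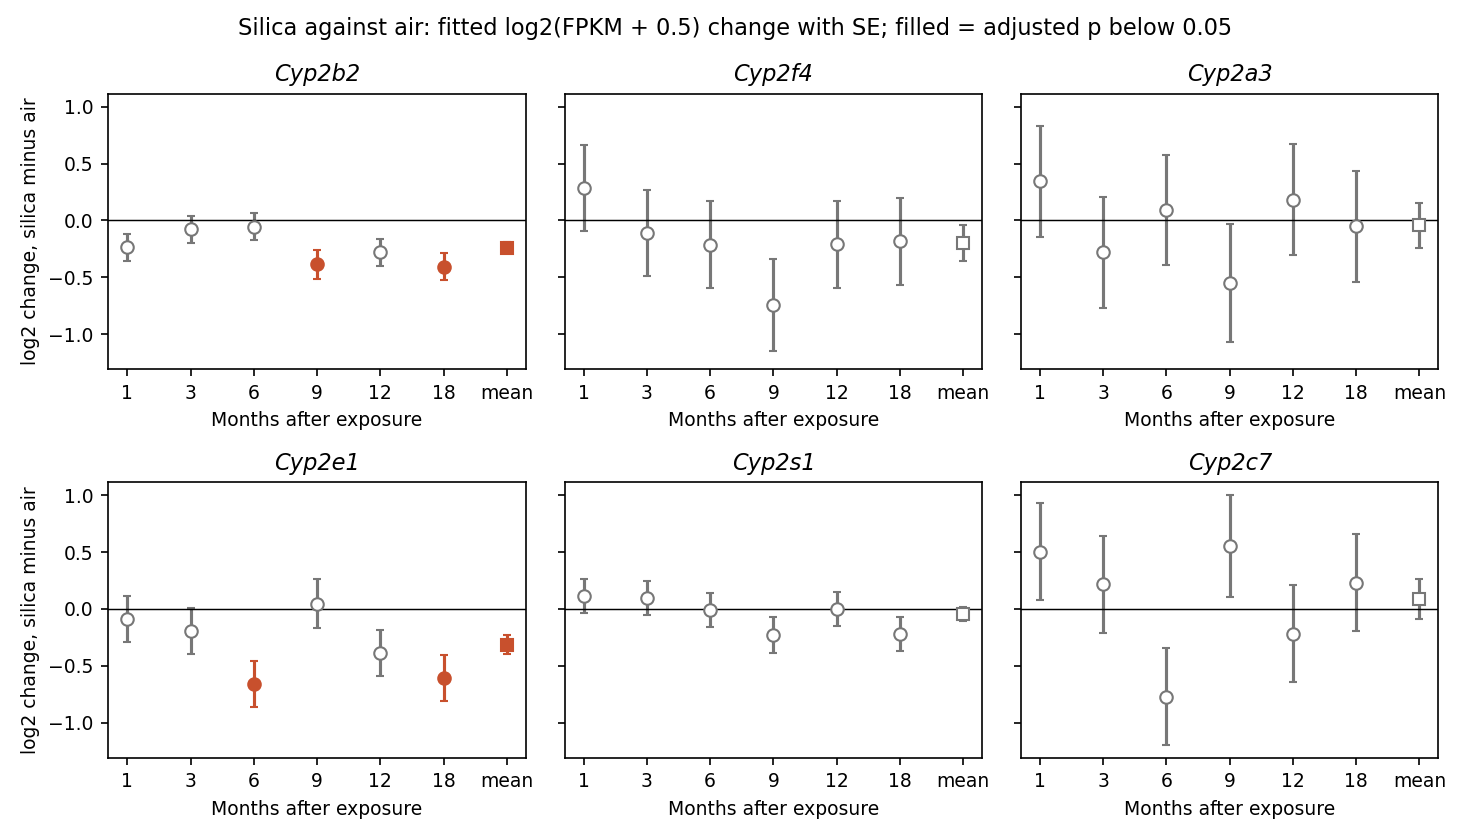
Fitted change in silica against air lungs (log2 of FPKM + 0.5, with SE) at each month after exposure and averaged over the 6 times (square), 1 panel per gene, with filled symbols where the adjusted p was below 0.05. All 7 estimates of Cyp2b2 lie below 0 and 3 are filled (9 months, 18 months and the average), while every estimate of Cyp2a3, Cyp2f4, Cyp2s1 and Cyp2c7 is open.

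Cyp2b2 is, with Cyp2b1, the classical phenobarbital-inducible P450 of rat liver, and this subfamily accounts for much of the P450 protein of rat lung. Cyp2b1 and Cyp2b2 are near-identical copies, so the FPKM of Cyp2b2 can include fragments of Cyp2b1 and is uncertain as a measure of Cyp2b2 alone. The likeness extends into the sequence just upstream. Aligned over the 250 bases before their annotated starts, the copies share 225 bases with 8 mismatches and 34 gap positions (84.3% identity). All gap positions lie at the ends of the alignment, because the starts are annotated at different points of the shared sequence. The identity with gaps therefore understates the likeness of the shared stretch. No other pair among the 7 members exceeds 50.9%. The windows are shown because this copy pair limits what the Cyp2b2 value measures. They come from RefSeq on rat assembly GRCr8, plus strand, 5′ to 3′, chr1:90645869-90646118 for Cyp2b1 and chr1:90722031-90722280 for Cyp2b2, with capitals marking 2 searched motifs, the C/EBP-type letters TTGCNNAA and the core GCGTG of the dioxin receptor element.
Cyp2b1: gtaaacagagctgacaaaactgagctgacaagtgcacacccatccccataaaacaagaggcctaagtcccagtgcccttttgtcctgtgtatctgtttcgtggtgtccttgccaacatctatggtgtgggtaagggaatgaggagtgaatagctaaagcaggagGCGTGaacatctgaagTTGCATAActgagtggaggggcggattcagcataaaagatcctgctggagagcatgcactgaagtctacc
Cyp2b2: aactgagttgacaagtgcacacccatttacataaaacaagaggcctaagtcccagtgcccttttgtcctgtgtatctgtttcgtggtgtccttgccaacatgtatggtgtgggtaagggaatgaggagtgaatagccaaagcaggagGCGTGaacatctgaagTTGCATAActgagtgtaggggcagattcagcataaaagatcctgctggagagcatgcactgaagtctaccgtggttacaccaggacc

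Each copy holds TTGCATAA at 70 to 63 bases before the start in Cyp2b1 and at 87 to 80 in Cyp2b2, and GCGTG at 86 to 82 and at 103 to 99. Both motifs sit at the same place in the shared sequence, and their positions differ because the annotated starts do. Searched on both strands of the same 250-base window, TTGCNNAA occurs in 9.22% and GCGTG in 25.9% of 33469 rat promoters, and a match describes letters only.

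At 1 month the air lungs read 14.1, 14.1, 18.6, 15.6 and 13.1 FPKM for Cyp2b2 and the silica lungs 12.0, 13.3, 12.2, 13.8 and 12.0. At 3 months air read 12.8, 14.1, 13.3, 13.2 and 14.1 and silica 12.8, 14.3, 12.0, 14.3 and 10.7. At 6 months air read 13.2, 12.6, 11.7, 12.1 and 10.7 and silica 13.2, 12.0, 12.0, 10.7 and 10.3. The arms overlapped at all 3 times, and the fitted changes of Cyp2b2 were -0.24 ± 0.12, -0.079 ± 0.12 and -0.055 ± 0.12 log2 (SE; adjusted p = 0.232, 0.692 and 0.768).

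At 9 months air lungs read 11.2, 14.5, 13.7 and 22.1 FPKM for Cyp2b2 and silica lungs 10.7, 12.3, 11.9, 10.6 and 11.1. Air rat 4 stood well above the other air lungs, and the arms overlapped at their low ends. Cyp2b2 fell by 23.5% at this time (-0.39 ± 0.13 log2, SE; adjusted p = 0.0160), 1 of 6 members called beside 30.8% of all tested genes, 11.3% in the lower direction. Without that air rat the change was -0.20 log2 (adjusted p = 0.224), so the call rests on 1 rat; a fit of these 2 groups alone also missed (adjusted p = 0.108).

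At 12 months air read 15.3, 15.8, 16.3, 13.8 and 17.0 FPKM and silica 11.0, 13.0, 12.8, 14.9 and 12.3. The change was -0.28 ± 0.12 log2 (SE; adjusted p = 0.0770), and no member was called, beside 23.6% of all tested genes; Cyp2b2 was the 1 member with an unadjusted p below 0.05 (limma). Cyp2b2 did pass at 12 months after median centring (-0.31 log2; adjusted p = 0.0342) and after quantile normalization (-0.37; 0.0111). At 18 months air read 13.2, 17.6, 12.4, 16.5 and 15.2 FPKM and silica 10.5, 13.9, 11.7, 7.33 and 13.2, with the lowest Cyp2b2 value of all 59 libraries, 7.33 FPKM, in silica rat 4. Cyp2b2 fell by 24.7% (-0.41 ± 0.12 log2; adjusted p = 0.0141), 1 of 2 members called lower beside 15.3% of all tested genes, 3.52% in the lower direction. The call was lost without that silica rat (adjusted p = 0.134), without air rat 2 (0.0540) and in a fit of the 2 groups alone (0.114). In air, Cyp2b2 at 18 months differed from 1 month by -0.012 log2 (95% interval -0.25 to 0.23; adjusted p = 0.967).

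Cyp2e1 oxidizes ethanol and other small molecules such as solvents and nitrosamines, and is best known from liver. At 1 month air lungs read 2.47, 3.90, 5.08, 5.02 and 6.27 FPKM and silica lungs 2.80, 3.58, 5.20, 5.34 and 4.01, and at 3 months air read 3.73, 3.92, 4.37, 4.62 and 5.18 and silica 4.19, 4.27, 4.55, 3.54 and 2.44. The arms overlapped at both times, with changes of -0.086 ± 0.20 and -0.20 ± 0.20 log2 (SE; adjusted p = 0.876 and 0.546), and 0 of 6 members were called at 1 and at 3 months (limma; 0 at unadjusted p below 0.05), beside 8.84% and 18.2% of all tested genes. At 6 months air lungs read 6.06, 6.34, 5.71, 13.1 and 7.17 FPKM and silica lungs 4.25, 3.96, 6.55, 4.69 and 3.27. Of the 5 silica lungs, 4 lay below every air lung, and air rat 4 was the highest of all 59. Cyp2e1 fell by 36.8% (-0.66 ± 0.20 log2, SE; adjusted p = 0.0116), the 1 member called at 6 months, beside 27.6% of all tested genes, 6.42% in the lower direction. Without air rat 4 it was -0.46 log2 (adjusted p = 0.0862).

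At 9 months the direction was not lower: air read 4.27, 6.55, 4.89 and 5.24 FPKM for Cyp2e1 and silica 5.00, 5.50, 4.02, 6.46 and 6.22, a change of 0.047 ± 0.22 log2 (SE; adjusted p = 0.897). At 12 months air read 8.50, 8.67, 6.47, 4.95 and 5.75 and silica 3.51, 7.40, 4.63, 6.31 and 4.11 (-0.39 ± 0.20 log2; adjusted p = 0.163). At 18 months air read 7.96, 7.54, 10.6, 6.17 and 9.75 and silica 4.41, 6.88, 4.69, 5.41 and 5.13. At 18 months 4 of 5 silica lungs lay below every air lung. Cyp2e1 fell by 34.4% there (-0.61 ± 0.20 log2, SE; adjusted p = 0.0338). This call was close to the threshold: it was lost without air rat 1, 3 or 5 (adjusted p = 0.0553, 0.0870 and 0.0891) and without silica rat 1, 3, 4 or 5 (0.0867, 0.0694, 0.0675 and 0.0506). It was also lost with no filter on low values (adjusted p = 0.0537).

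Cyp2a3 and Cyp2f4 varied together from rat to rat over a wide range, and no silica difference was called for either. Cyp2a3 is the rat P450 of nasal and lung epithelium that acts on coumarin and tobacco nitrosamines, and Cyp2f4 is the club cell enzyme that turns naphthalene into its reactive epoxide. Cyp2a3 ranged 21.6-fold over the 59 libraries, from 1.41 to 30.5 FPKM, and Cyp2f4 ranged 10.6-fold, from 2.09 to 22.1. Cyp2e1 ranged 5.37-fold, Cyp2s1 3.04-fold and Cyp2b2 3.01-fold. Within groups, the SD on the log2 scale was 0.80 for Cyp2a3, 0.69 for Cyp2c7, 0.62 for Cyp2f4, 0.33 for Cyp2e1, 0.24 for Cyp2s1 and 0.19 for Cyp2b2. The median SD of all tested genes was 0.16, and 98.1% of them varied less than Cyp2a3 and 97.1% less than Cyp2f4.

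At 9 months air lungs read 20.9, 15.0, 12.7 and 10.9 FPKM for Cyp2a3, and silica lungs 22.9, 24.0, 16.1, 1.41 and 5.59. The same lungs read 19.0, 16.3, 13.8 and 12.9 FPKM for Cyp2f4 in air and 19.3, 15.5, 12.8, 2.09 and 6.44 in silica. Silica rats 1, 2 and 3 were in the air range or above it for Cyp2a3, and silica rats 4 and 5 lay below every air rat for both genes. For Cyp2f4, silica rat 3 (12.78 FPKM) also lay just below the lowest air rat (12.86). Silica rat 4 at 9 months had the lowest Cyp2a3 and Cyp2f4 of all 59 libraries, at a relative depth of 0.471. Silica rat 4 at 18 months, next lowest in Cyp2f4, had a relative depth of 1.00, and air rat 1 at 9 months had 0.432. These 2 silica rats ranked 4 and 2 from the highest of 59 in Cyp2c7. The part of depth in these values was not tested. The fitted changes at 9 months were -0.55 ± 0.52 log2 for Cyp2a3 (SE; adjusted p = 0.453) and -0.74 ± 0.40 for Cyp2f4 (0.164). Without silica rat 4 they were 0.054 and -0.28.

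At 18 months air read 6.00, 6.84, 10.8, 16.0 and 11.9 FPKM for Cyp2a3 and silica 3.23, 13.5, 15.0, 4.43 and 22.4. Cyp2f4 read 6.82, 7.59, 16.5, 20.1 and 11.1 in air and 5.85, 14.5, 14.8, 3.99 and 18.8 in silica. The silica group again held both low and high rats, the same ones for both genes, and the arms overlapped. At 1, 3, 6 and 12 months the group means of Cyp2a3 in air were 6.08 ± 2.55, 8.15 ± 3.93, 7.86 ± 3.67 and 13.9 ± 9.72 FPKM (SD, n = 5), and in silica 7.38 ± 0.953, 6.59 ± 3.06, 8.08 ± 2.87 and 14.9 ± 6.41. Those of Cyp2f4 were 8.12 ± 2.18, 8.71 ± 3.11, 10.1 ± 3.17 and 13.7 ± 6.03 FPKM in air and 9.78 ± 1.12, 7.93 ± 2.39, 8.54 ± 2.30 and 11.9 ± 4.79 in silica. The differences between arms were smaller than the spread between rats at 3, 6 and 12 months for both genes.

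With group means removed, Cyp2a3 and Cyp2f4 correlated at r = 0.948 over 59 libraries (Spearman's rho 0.939), within air at 0.918 and within silica at 0.962. The value was 0.936 without the 2 libraries farthest from their group means in Cyp2a3. For each pair of members below, the 2 farthest libraries are likewise those of 1 gene of the pair. The permutation p within groups was 1e-05, the smallest that 100000 resamples can give for both r and rho (adjusted over 15 pairs of members, 7.5e-05). Their ratio, Cyp2a3 over Cyp2f4, stayed between 0.552 and 1.68 with a median of 0.879. Both values of a point come from the same library and share its scaling, and the 2 genes lie near each other on chromosome 1. Cyp2b2 and Cyp2s1 lie in the same stretch. Cyp2b2 stood at r = 0.213 with Cyp2a3 and 0.222 with Cyp2f4 (adjusted permutation p = 0.246 for both). Cyp2s1 followed the pair less closely, at r = 0.611 with Cyp2f4 (permutation p = 1.80e-04, adjusted 9.00e-04; rho 0.487, adjusted p = 0.00439) and 0.567 with Cyp2a3 (permutation p = 6.70e-04, adjusted 0.00251; rho 0.478, adjusted p = 0.00439), which became 0.451 and 0.515 without the 2 farthest libraries. Cyp2b2 and Cyp2s1 correlated at 0.418 (permutation p = 0.00282, adjusted 0.00846; rho 0.369, adjusted p = 0.0163) but at 0.263 without the 2 farthest libraries, so the relation rests in part on those, with 0.214 in air and 0.587 in silica. Cyp2e1 did not pass against either gene of the pair, with r of -0.19 to Cyp2a3 and -0.22 to Cyp2f4 (adjusted permutation p = 0.246 and 0.245). Cyp2c7 did not pass against Cyp2a3, Cyp2f4 or Cyp2s1, with r of -0.22, -0.22 and -0.18 (adjusted permutation p = 0.246, 0.246 and 0.274). Within silica these r were -0.51, -0.59 and -0.58, and within air 0.13, 0.24 and 0.30. That difference between the arms was not tested. Without the 2 farthest libraries the r over both arms were -0.20, -0.042 and 0.041.

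The promoter windows of Cyp2a3 and Cyp2f4 are shown because the genes moved together: the 100 bases before the annotated starts, RefSeq, GRCr8, plus strand, 5′ to 3′, chr1:91299484-91299583 and chr1:91543668-91543767, with capitals on TATAAA and on TTGCNNAA.
Cyp2a3: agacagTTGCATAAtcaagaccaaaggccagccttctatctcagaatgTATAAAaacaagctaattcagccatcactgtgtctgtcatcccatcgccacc
Cyp2f4: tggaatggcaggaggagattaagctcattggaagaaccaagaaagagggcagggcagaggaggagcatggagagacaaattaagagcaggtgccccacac

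Cyp2a3 has TATAAA at 52 to 47 bases before its start, a box found in 12.9% of rat promoters in a 250-base window, and TTGCATAA at 94 to 87. None of the 3 motifs was found in the 250-base window of Cyp2f4, and over that window the promoters share 137 bases with 86 mismatches and 54 gap positions (49.5% identity). The other pairs of members, Cyp2b1 with Cyp2b2 apart, ranged from 42.4% to 50.9%.

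**Figure D3:**
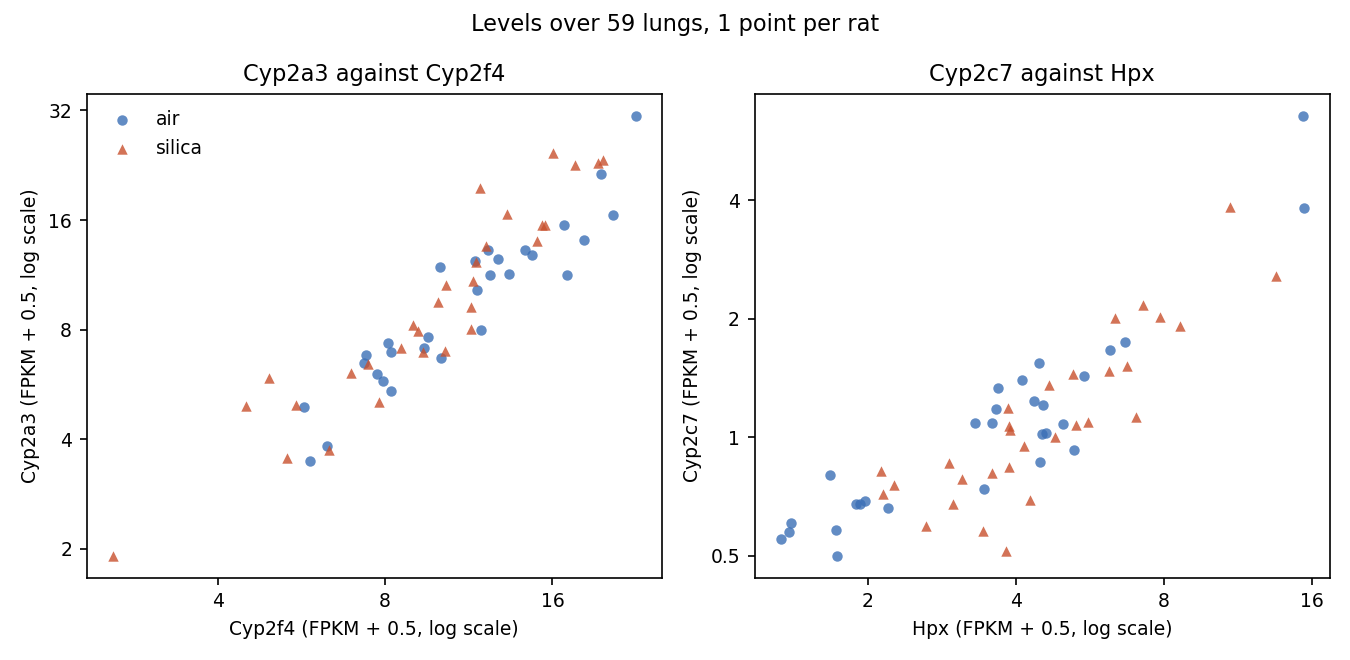
Left, Cyp2a3 against Cyp2f4, and right, Cyp2c7 against Hpx, both as FPKM + 0.5 on log axes, with 1 point per rat (circles, air; triangles, silica). Cyp2a3 and Cyp2f4 lie along a single diagonal in both arms (r = 0.948 with group means removed). The few lungs high in Cyp2c7 are also high in Hpx (r = 0.876 over 59 libraries), which the choice of Hpx by likeness fixes in part.

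In air lungs, Cyp2s1 and Cyp2e1 were higher at 18 months than at 1 month. Cyp2s1 is a P450 of airway and other surface epithelia that responds to dioxin and acts on retinoids and lipid products. Cyp2s1 in air read 2.50, 2.96, 3.26, 2.87 and 3.12 FPKM at 1 month, then 2.62, 4.04, 3.83, 2.23 and 3.67 (3 months), then 4.35, 4.26, 3.66, 4.64 and 3.80 (6 months). Later values were 4.85, 4.45, 5.56 and 6.59 (9 months), 5.83, 4.67, 5.00, 6.55 and 4.47 (12 months) and finally 5.58, 5.18, 6.79, 6.58 and 6.40 (18 months). Every rat at 18 months was above every rat at 1 month, a separation that 13.1% of all tested genes showed in either direction. Cyp2s1 was 1.92-fold higher (0.94 ± 0.15 log2, SE; adjusted p = 8.63e-06; 0.89 to 0.99 log2 with any 1 library left out), and the F test over the 6 air groups gave 12.8 (adjusted p = 4.48e-06).

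Group means of Cyp2e1 in air were 4.55 ± 1.43 FPKM at 1 month (SD, n = 5), 4.36 ± 0.577 at 3, 7.67 ± 3.08 at 6, 5.24 ± 0.960 at 9 (n = 4), 6.87 ± 1.66 at 12 and 8.40 ± 1.77 at 18 months. The 9-month group was low, so the means did not climb steadily, and the 18-month and 1-month groups overlapped at 1 rat. Cyp2e1 was 1.80-fold higher at 18 months than at 1 month (0.85 ± 0.20 log2, SE; adjusted p = 0.00181; 0.67 to 0.97 with any 1 library left out), and the F test over the air groups gave 6.39 (adjusted p = 0.00126). Between 18 months and 1 month in air, 2 of 6 members were called, both higher, beside 21.8% of all tested genes, 17.4% in the higher direction, and the F test called the same 2 members beside 28.9%. Cyp2c7 missed that F test, but was called by limma with a pseudocount of 0.1 (0.0441) and without air rat 3 at 18 months (0.0118), and Cyp2b2 (0.107) was called without air rat 1 (0.0399) or 4 (0.0448) at 9 months. Cyp2a3 (0.72 ± 0.49 log2; adjusted p = 0.308), Cyp2f4 (0.51 ± 0.38; 0.373) and Cyp2c7 (0.026 ± 0.43; 0.980) did not pass.

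Cyp2s1 in silica lungs read 3.29, 3.92, 2.39, 3.65 and 3.02 FPKM at 1 month, then 3.47, 3.79, 2.94, 4.00 and 3.24 (3 months), then 4.44, 4.24, 3.60, 3.89 and 4.31 (6 months). Later values were 5.51, 5.96, 5.13, 2.58 and 3.96 (9 months), 5.02, 6.24, 4.31, 5.19 and 5.67 (12 months) and finally 5.67, 5.78, 5.01, 3.26 and 6.69 (18 months). The lowest value at 9 and at 18 months belonged to rat 4 of each group, rats that were also low in Cyp2f4. In a comparison added after the data were seen, Cyp2s1 was 1.52-fold higher at 18 months than at 1 month in silica lungs (0.61 ± 0.15 log2, SE; adjusted p = 0.00333), the 1 member called, beside 14.2% of all tested genes, 10.0% in the higher direction. Cyp2e1 stood at 0.33 ± 0.20 log2 in silica (95% interval -0.083 to 0.73; adjusted p = 0.293). The difference between the arms in the change from 1 to 18 months was -0.52 ± 0.29 log2 for Cyp2e1 (adjusted p = 0.542) and -0.33 ± 0.21 for Cyp2s1 (0.583); no member was called (limma; 0 at unadjusted p below 0.05), beside 0.156% of all tested genes.

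The 100 bases before the starts of these 2 genes are shown as those of the members called between 18 months and 1 month in air (RefSeq, GRCr8, 5′ to 3′ in the gene's direction), chr1:90453074-90453173 on the minus strand for Cyp2s1 and chr1:205269867-205269966 on the plus strand for Cyp2e1, with the same motifs in capitals.
Cyp2s1: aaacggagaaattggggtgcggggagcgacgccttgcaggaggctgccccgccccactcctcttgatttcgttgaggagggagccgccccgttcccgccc
Cyp2e1: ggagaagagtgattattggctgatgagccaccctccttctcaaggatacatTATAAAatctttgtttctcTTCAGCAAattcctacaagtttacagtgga

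Cyp2e1 has TATAAA at 49 to 44 bases before its start and a TTGCNNAA match on the opposite strand at 30 to 23. No searched motif was found in the 250-base window of Cyp2s1, and the 2 promoters share 43.02% identity over 250 bases.

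Cyp2c7 is a liver enzyme of steroid and retinoid metabolism, and in these lungs it was at or above 1 FPKM in 12 of 59 libraries, so it entered the tests through those 12 alone. No silica difference of Cyp2c7 was called. Median Cyp2c7 in air was 0.736 FPKM at 1 month, 0.107 at 3, 1.04 at 6, 0.477 at 9, 0.590 at 12 and 0.239 at 18 months. In silica the medians were 1.51, 0.179, 0.501, 0.574, 0.568 and 0.689 FPKM. Single rats stood far above their groups: 6.07 FPKM in air rat 3 at 18 months, 3.36 in silica rat 4 at 18 months, 3.31 in air rat 4 at 6 months and 2.07 in silica rat 4 at 9 months. The fitted silica changes at the 6 times, earliest first, were 0.50, 0.22, -0.77, 0.55, -0.22 and 0.23 log2, each with an SE of 0.43, or 0.45 at 9 months.

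Cyp2c7 moved with genes known from liver. The 3 closest were picked by their likeness to it, which fixes their r in part. Saa4, taken from the list of liver markers, stood at r = 0.839. Among tested genes with a symbol in the RefSeq table, the 3 most like it over the 59 libraries were Plg, encoding plasminogen (Pearson's r = 0.901), Apoc1, an apolipoprotein (0.896), and Hpx, encoding hemopexin, the plasma carrier of haem (0.876), and each kept r of at least 0.863 without the 2 farthest libraries. Cyp2c6v1-2, Cyp2a1, Cyp2b3 and Cyp2a2, P450 genes known from liver, stood at 0.895, 0.852, 0.840 and 0.749. The first of them was tested under a name that matched no RefSeq symbol. The other 3 missed the filter on low values, with means of 0.235, 0.284 and 0.265 FPKM. The liver sulfotransferase Sult2a1, at 0 in 13 of 59 libraries, was looser at 0.669, and at 0.517 without the 2 libraries highest in Cyp2c7. The 4 rats high in Cyp2c7 were also the 4 highest of 59 in Hpx, from 10.4 to 14.9 FPKM beside a median of 3.62. The choice of Hpx by likeness fixes this in part. The summed liver markers, Hpx and Saa4, ranged from 0.882 to 17.5 FPKM in air and from 1.89 to 14.8 in silica, with neither at 0 in any library, and 0 of the 2 were called in the average over times (limma; adjusted p = 0.0506 and 0.469; 1 at unadjusted p below 0.05).

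Cyp2e1 correlated with Cyp2c7 once group means were removed (r = 0.586, rho 0.598, permutation p = 1e-05 and adjusted p = 7.5e-05 for both; 0.526 without the 2 farthest libraries; 0.591 in air and 0.581 in silica). The 2 rats highest in Cyp2e1, 13.1 FPKM in air at 6 months and 10.6 in air at 18 months, were among the 4 high in Cyp2c7 and Hpx. Silica rat 4 at 9 months and silica rat 4 at 18 months, also among those 4, ranked 14 and 24 from the highest in Cyp2e1 (6.46 and 5.41 FPKM). With the mean log2 level of Cyp2a1, Cyp2a2 and Cyp2b3 as a covariate, an alternative added after the data were seen, the average silica change was -0.30 log2 for Cyp2e1 (adjusted p = 1.01e-05) and -0.24 for Cyp2b2 (4.47e-05). All 3 entries missed the filter on low values (medians 0.169, 0.180 and 0.204 FPKM), so the covariate lies near the floor. At 6 months their means were 0.496, 0.552 and 0.624 FPKM in air and 0.199, 0.250 and 0.196 in silica. The covariate can therefore take up part of a silica difference at that time. With the same covariate the 6-month change of Cyp2e1 became -0.27 log2 and was not called (adjusted p = 0.169), and the 18-month change was -0.56 (0.00304). The difference of Cyp2e1 between 18 months and 1 month in air was 1.01 log2 with it (adjusted p = 8.36e-07), and the one in silica lungs reached the threshold (0.65; 8.67e-04).

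For each other member, the 3 tested genes with a RefSeq symbol and the highest Pearson's r over the 59 libraries are given as a description, since they are the top of 1278 genes and all values of a library share its scaling. Cyp2a3 and Cyp2f4 were each other's closest gene (r = 0.928), followed by Dnah3, a dynein heavy chain, at 0.805 for Cyp2a3 and 0.877 for Cyp2f4. Adam8, a membrane metalloprotease, was next for Cyp2a3 (0.771) and Kndc1 for Cyp2f4 (0.822). Cyp2s1 was closest to Dnaaf3, a dynein arm assembly factor (0.803), Cfap46, a ciliary protein (0.799), and Adgb, androglobin (0.781). In silica rat 4 at 9 months and silica rat 4 at 18 months, where Cyp2f4 was lowest and next lowest of 59, its own closest genes Dnah3 and Kndc1 ranked 1 and 2 from the lowest, which their choice by likeness fixes in part. In the same rats Cfap46 ranked 2 and 6, Dnaaf3 6 and 13 and Adgb 35 and 30 from the lowest, and the ciliated cell marker Ccdc114 ranked 2 and 4, so Adgb was near its median in both rats. Cyp2b2 was closest to Galnt18, a glycosyltransferase (0.673), Arrb1, beta-arrestin (0.597), and Lhb (0.568), and Cyp2e1 to Sh2b1 (0.628), Map3k5 (0.624) and Thrsp (0.568), all looser than the likeness within the airway pair.

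Of 278 genes on 12 lists of P450 partners and cell type markers, 36 were in the table and 23 were tested, and the lists of other P450 families, club cell markers and alveolar type 1 markers had none. Among the other CYP2 entries, Cyp2t1 did not pass in the average over times (-0.097 ± 0.055 log2, SE; adjusted p = 0.127) and neither did Cyp2c6v1-2 (0.030 ± 0.16; 0.895), but Cyp2c6v1-2 varied between the air groups (F = 4.80; adjusted p = 0.00805). Of 5 tested receptors and transcription factors of P450 genes, 4 were higher with silica and none lower, beside 37.5% of all tested genes higher and 20.1% lower in the average over times. They were Cebpa, an activator of many P450 genes (0.47 ± 0.043 log2), the clock-output factor Dbp (0.44 ± 0.11), Arnt2 (0.15 ± 0.037) and Cebpg (0.14 ± 0.026). In air at 18 months against 1 month 3 of the 5 were higher, beside 17.4% of all tested genes, Dbp by 0.77 ± 0.27, Arnt2 by 0.38 ± 0.091 and Cebpa by 0.36 ± 0.10 log2. Of 3 genes of electron transfer and haem turnover, Uros, of haem synthesis (0.21 ± 0.053), and Blvrb, of haem breakdown (0.16 ± 0.035), were higher with silica and Cyb5r2 did not pass, and none was called between the same air groups. Of 2 conjugation enzymes, Aldh1a3 and Sult1a1, none was called with silica (limma, 1 at unadjusted p below 0.05), and the sulfotransferase Sult1a1 was higher in air at 18 months than at 1 month (0.56 ± 0.13 log2).

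Cell type markers moved with silica beside the CYP2 genes, in the comparison that called 37.5% of all tested genes higher and 20.1% lower. Of 18 listed macrophage and neutrophil markers 4 were in the table (Itgax, Itgam, C5ar1 and Cd177). All 4 were higher, with sums of 13.4 to 31.7 FPKM in air and 23.6 to 76.8 in silica. Of 17 listed alveolar type 2 markers 3 were in the table, among them Cebpa, which is also counted with the transcription factors above. All 3 were higher, with sums of 129.8 to 165.9 FPKM in air and 138.3 to 318.3 in silica. Of 13 listed endothelial markers 2 were in the table, Ehd2 (-0.25 ± 0.027 log2) and Rasip1 (-0.33 ± 0.046). Both were lower, with sums of 75.9 to 91.1 FPKM in air and 54.9 to 86.9 in silica. Of 2 ciliated cell markers, Ccdc114 was lower (-0.21 ± 0.063 log2) and Dnaaf3 did not pass (-0.020 ± 0.058), with sums of 2.11 to 4.35 FPKM in air and 1.72 to 4.59 in silica. In air at 18 months against 1 month, Dnaaf3 was higher (0.62 ± 0.14 log2) and Ccdc114 did not pass (0.16 ± 0.15). Dnaaf3 was also the gene closest to Cyp2s1 over the 59 libraries, so a rise shared with Cyp2s1 is fixed in part. No marker was at 0 in any library, and the part of these cell types in the levels of Cyp2b2, Cyp2e1 and Cyp2s1 was not tested.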

How the data were processed

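Each library came from the lung of 1 rat, and the spread behind each p-value is that between rats. Per the labels' protocols, RNA was isolated with miRNeasy kits and DNase, and TruSeq Stranded Total RNA kits with Ribo-Zero Gold made the libraries. The submitters' processing notes list Cufflinks 2.1.1, TopHat2 2.0.9, Bowtie2 2.2.9, Trimmomatic 0.35 and bcl2fastq 2.19; no source used here gives the build or annotation. The authors deposited FPKM, 1 column per library. The last of 2888 entries was incomplete (31 of 59 values) and was left out. The entries lie almost all on chromosome 1 (1714 of 1729 matched symbols), and other genes were not analysed here.

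Genes with at least 1 FPKM in at least 4 libraries were tested (1278). The fit used limma 3.58.1 (R 4.3.3) with its trend option, log2(FPKM + 0.5) as input and 1 mean for each of 12 groups, with 47 residual and 3.41 prior degrees of freedom and Benjamini-Hochberg adjustment over all tested genes. Fold changes are on this scale and understate those of low genes. The median SE at 1 month was 0.0994 log2. The fit was tested on simulated data. Pair correlations used values with group means removed and permutations within groups (scipy 1.17.1). Within-group libraries correlated at r = 0.912 to 0.983, and none were identical. FPKM hold no counts: of 1997 values of 261 low entries, 63.7% lay within 0.1 log2 of a single step, which gave relative depth.

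All 7 members are named whatever their values, with other CYP2 entries that passed the filter and, per marker list, up to 4 called genes. The members and lists were chosen with earlier results of these data known. Alternatives covered the pseudocount, filter, scaling, trend, compared groups, left-out libraries and times, and a covariate.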

Additional observations from a re-analysis of the deposited data

Results flagged for a closer look

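Each of 6 members was looked at in each of 12 groups of 4 or 5 lungs, 72 sets of values from the same rats. In 4 of the 72 sets a single rat stood apart, by the gap to its nearest neighbour as a share of the whole range (Dixon's test). Chance flags about 1 in 20 such sets, and 4 of 72 is near that share. Cyp2e1 had its highest value in air at 6 months at 13.1 FPKM, in rat 4, and Cyp2c7 had its highest there in the same rat at 3.31 FPKM. Cyp2c7 also stood apart at 6.07 FPKM in air rat 3 at 18 months and at 3.36 FPKM in silica rat 4 at 18 months. These 3 rats were among the 4 highest of 59 in Hpx, a gene picked for its likeness to Cyp2c7.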

How the results depend on the processing

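Of the results, the averaged silica changes of Cyp2b2 and Cyp2e1 and the higher Cyp2s1 and Cyp2e1 at 18 months in air kept direction and call under every alternative run. Time-resolved counts of called members did not. At 6 months 0 instead of 1 was called with the covariate, at 9 months 0 with the compared groups alone, and at 18 months 1 instead of 2 with no filter or with the compared groups alone. At 12 months 1 instead of 0 was called with median centring or quantile normalization, and 2 instead of 1 in silica at 18 against 1 month with the covariate. Leaving out each library in turn gave 0 to 1 called members at 6 and at 9 months, 0 to 2 at 18 months, and 2 to 3 for the variation between times in air, the added member being Cyp2b2 without air rat 1 (adjusted p = 0.0399) or 4 (0.0448) of the 9-month group, or Cyp2c7 without air rat 3 of the 18-month group (0.0118). The direction reversed only for changes that were not called, and the cause was not tested. With quantile normalization the log2 change stood at -0.059 for Cyp2c7 (silica at 3 months), at -0.028 for Cyp2a3 (silica at 6 months), at -0.028 for Cyp2c7 (silica averaged over times), at -0.0089 for Cyp2c7 (air at 18 against 1 month) and at -0.013 for Cyp2f4 (silica at 18 against 1 month). With the covariate the log2 change stood at -0.19 for Cyp2a3 (silica at 6 months), at 0.19 for Cyp2c7 (silica at 6 months), at -0.22 for Cyp2e1 (silica at 9 months), at -0.10 for Cyp2c7 (silica at 9 months), at -0.16 for Cyp2f4 (silica at 18 against 1 month), at 0.53 for Cyp2c7 (silica at 18 against 1 month) and at 0.12 for Cyp2c7 (silica difference at 18 minus 1 month). With a pseudocount of 0.1 the log2 change stood at 0.00021 for Cyp2s1 (silica at 12 months) and at -0.16 for Cyp2c7 (air at 18 against 1 month). With the groups of month 3 left out the log2 change stood at 0.0034 for Cyp2a3 (silica averaged over times). With the groups of month 9 left out the log2 change stood at 0.057 for Cyp2a3 (silica averaged over times) and at -0.0081 for Cyp2c7 (silica averaged over times). With median centring the log2 change stood at -0.060 for Cyp2c7 (air at 18 against 1 month) and at -0.019 for Cyp2f4 (silica at 18 against 1 month). With 1 library left out, Cyp2e1 ranged from -0.26 to 0.033 (silica at 1 month) and -0.036 to 0.15 (silica at 9 months). With 1 library left out, Cyp2f4 ranged from -0.26 to 0.043 (silica at 3 months), -0.38 to 0.092 (silica at 12 months), -0.40 to 0.12 (silica at 18 months) and -0.19 to 0.34 (silica at 18 against 1 month). With 1 library left out, Cyp2s1 ranged from -0.0096 to 0.17 (silica at 3 months), -0.051 to 0.028 (silica at 6 months) and -0.057 to 0.073 (silica at 12 months). With 1 library left out, Cyp2a3 ranged from -0.16 to 0.28 (silica at 6 months), -0.87 to 0.054 (silica at 9 months), -0.023 to 0.52 (silica at 12 months), -0.36 to 0.30 (silica at 18 months) and -0.097 to 0.057 (silica averaged over times). With 1 library left out, Cyp2c7 ranged from -0.39 to 0.0034 (silica at 12 months), -0.16 to 0.87 (silica at 18 months), -0.61 to 0.22 (air at 18 against 1 month) and -0.66 to 0.37 (silica difference at 18 minus 1 month). With 1 library left out, Cyp2b2 ranged from -0.073 to 0.063 (air at 18 against 1 month). Among planned and added settings other than left-out libraries, counts over all tested genes that moved by over 1.5 times were 65 instead of 113 at 1 month with median centring, and 1 instead of 302 at 12 months and 130 instead of 196 at 18 months with the compared groups alone. The variation of the silica difference called 5, 3, 3 and 89 instead of 17 without month 1, 3, 6 or 12. Its difference between 18 and 1 month called 1 with no filter, 0 with the stricter filter and 1 with the covariate, instead of 2. Leaving out 1 library, counts over all tested genes ran from 44 (without air rat 2) to 136 at 1 month, 195 (without silica rat 1) to 457 (without silica rat 3) at 12 months, 112 (without silica rat 4) to 214 at 18 months, and 10 (without air rat 2 or silica rat 5 at 1 month) to 78 (without silica rat 3 at 12 months) for the variation of the silica difference; at 1 month the count was also 66 without silica rat 5, and at 12 months 198 without silica rat 4. The variation count was also 11 without air rat 3 or silica rat 1 at 3 months or silica rat 4 at 9 months, and 30 without silica rat 2 at 9 months. For the difference between 18 and 1 month the count was 1 or 2. The stricter filter (30 libraries) dropped Cyp2c7, which then had no value. No paired analysis was possible because the titles give each library its own number. Depth limits Cyp2c7 and the 9 CYP2 entries under the filter.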
